A study of Mus musculus with 6 samples.

Results

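Taste buds use ATP as a transmitter, as in the mouse circumvallate (CV) and foliate (Fol) papillae, whose taste cells were studied here. The genes described have the names of families that release ATP, sense it or break it down. They were chosen by name from the deposited table: the P2X, P2Y and adenosine receptors (P2rx, P2ry and Adora genes), the pannexins (Panx), the nucleoside triphosphate diphosphohydrolases (Entpd), the 5'-nucleotidase gene Nt5e and the adenosine deaminase gene Ada. The table of 23361 genes holds 32 of them. RNA of taste cells, freed from the tongue epithelium of C57BL/6 mice with enzymes, was sequenced at 2 months and at 6 months of age, with 3 libraries in each group. The cells of several mice were pooled for each library, so no value belongs to a single animal. Each gene has 1 FPKM value (sequenced fragments scaled to transcript length and to library size) for each age, taken over the libraries of that age. The libraries held an estimated 16900000 to 25500000 fragments each, read from the spacing of the lowest values. Values of single libraries were not analysed here, so no SD, interval or test stands behind any difference, and all differences below are descriptions of the pooled values. The labels name no difference between the groups other than age, but the study's methods give fewer mice per pool for the older mice. The series text names 3 months in place of 2 months in 1 of its lines.

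When a taste stimulus excites a type II cell, the receptor cell for sweet, umami or bitter, it releases ATP through a channel, and the ATP acts on P2X receptors of the gustatory nerve and on P2Y receptors of taste cells. Type I cells, which wrap around the others, carry NTPDase2 (the product of Entpd2) on their surface and split ATP to ADP and further. The 5'-nucleotidase CD73 (Nt5e) turns AMP into adenosine, A2B receptors (Adora2b) sense adenosine, and adenosine deaminase (Ada) removes it by turning it into inosine. Ada is also known as an enzyme of very high activity in the keratinised epithelium of the mouse tongue and upper gut.

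A gene was counted as expressed where its values at both ages averaged 1 FPKM or more, which held for 17 of the 32 genes. Differences are on the log2(FPKM + 1) scale, with the older minus the younger group, and a gene was called changed where this was at least 1.5-fold (0.58 on the log2 scale). Of the 17 genes, 1 was called, Ada, which was higher at 6 months, and 0 were called lower. Among all 12652 expressed genes the rule called 2.77%, with 1.05% higher and 1.72% lower. At 2-fold, Ada was again the one gene called, against 0.561% of all expressed genes called higher and 1.04% called lower. A count of 1 of 17 (5.88%) is thus near what the table as a whole gave. It is the size of the difference of Ada that set it apart from the other 16 genes. With 2.77% of all genes called, a count of 0 in a short list below is also near this share. The median difference of the 17 genes was -0.01, equal at this precision to the -0.01 of all genes, and 8 of the 17 lay between the quartiles of all genes (-0.10 and 0.08). Without Ada, the other 16 ranged from -0.24 to 0.13.

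**Figure D1:**
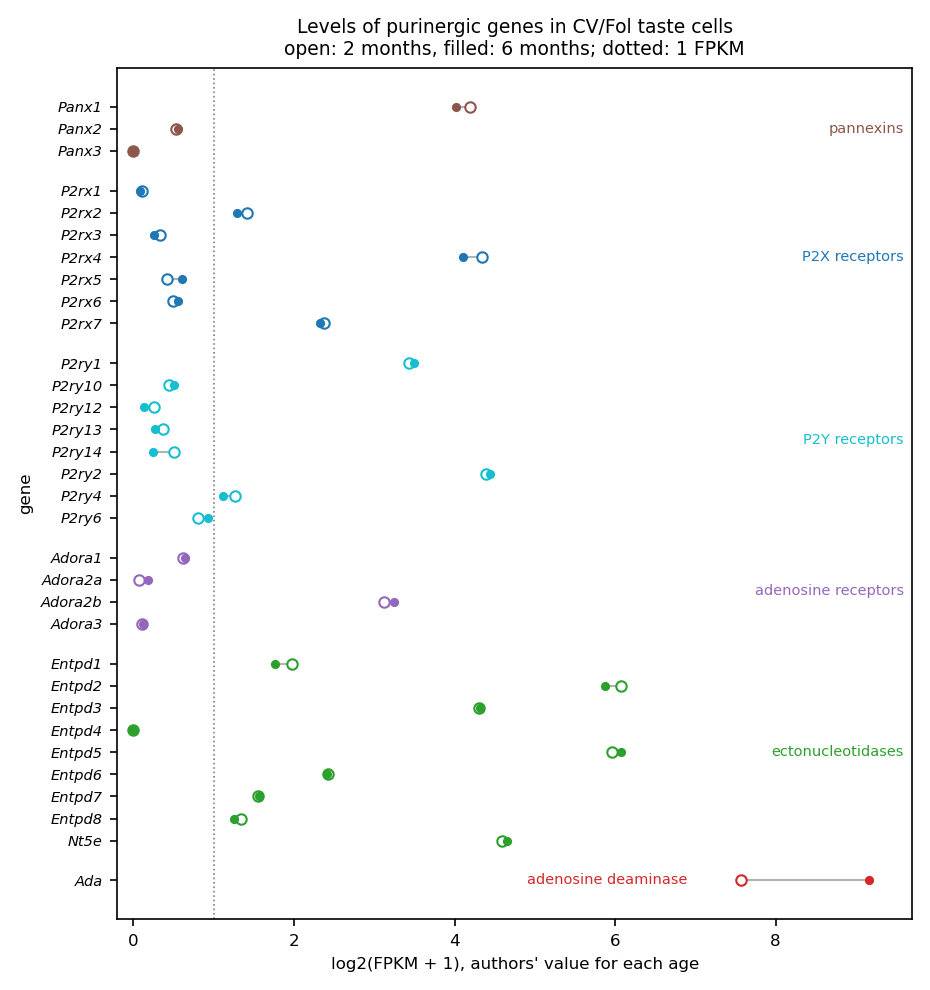
Level of each of the 32 genes on the log2(FPKM + 1) scale (x axis), grouped by role, with the authors' value at 2 months as an open circle and at 6 months as a filled circle; the dotted line marks 1 FPKM. The circles of Ada lie far apart, at 188 and 572 FPKM, while those of the other genes nearly touch.

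Ada had the highest level of the 32 genes at both ages and the largest difference. Its value was 188 (2 months) and 572 FPKM (6 months), a ratio of 3.04 and a log2 difference of 1.60. In the order of levels of all genes it moved from place 459 to place 173. Its rise ranked 45 among the 12652 expressed genes. Most of the larger rises in the table belonged to microRNA and small nucleolar RNA genes. With these and the genes listed at 0 in 1 age left out, a background chosen after the data had been seen, 1.61% of 12427 genes were called (0.443% higher and 1.17% lower), and Ada had the fifth largest rise. The 4 rows above it were Idi2, Scgb1a1, Sprr2k and a joint row for Amd1 and Amd2. Ada (ENSMUSG00000017697.3) has 12 exons and lies on the minus strand of chromosome 2 (GRCm38/mm10) from 163726584 to 163750239. The annotation lists no other gene that overlaps it. About 17085 sequenced fragments stood behind its value at 2 months and about 51380 at 6 months, so counting error is small beside the difference, but the spread between the pools is not known here.

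Because Ada is the one gene that was called, its promoter is shown, followed by that of Entpd2, the gene of the type I cell ecto-ATPase, which was not called. Each sequence runs from 250 bases before to 50 bases after the annotated start (RefSeq, GRCm38.p6). Capitals mark GGGCGG, the GC box, and TGANTCA, the motif bound by AP-1 factors such as c-Fos and c-Jun, in either orientation. The Ada sequence is chr2:163750190-163750489 on the minus strand and the Entpd2 sequence is chr2:25395624-25395923 on the plus strand.
Ada promoter: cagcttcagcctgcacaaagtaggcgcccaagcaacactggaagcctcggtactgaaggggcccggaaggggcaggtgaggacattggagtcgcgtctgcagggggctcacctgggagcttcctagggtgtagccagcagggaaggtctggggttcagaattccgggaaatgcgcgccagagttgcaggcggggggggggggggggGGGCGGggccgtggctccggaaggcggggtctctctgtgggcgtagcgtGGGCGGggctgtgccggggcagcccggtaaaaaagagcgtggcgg
Entpd2 promoter: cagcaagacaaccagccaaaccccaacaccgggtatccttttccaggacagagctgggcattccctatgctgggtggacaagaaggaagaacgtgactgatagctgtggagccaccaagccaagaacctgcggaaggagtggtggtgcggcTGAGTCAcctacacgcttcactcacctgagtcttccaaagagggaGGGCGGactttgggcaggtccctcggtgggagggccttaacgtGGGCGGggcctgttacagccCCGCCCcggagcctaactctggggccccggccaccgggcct
The Ada window has 2 GC boxes, no TGANTCA and a GC content of 68.0%, above the 52.7% median of all windows of this length. The Entpd2 window has 3 GC boxes and 1 TGANTCA. Over all 32851 promoter windows, GGGCGG was found in 35.7% and TGANTCA in 7.81%. The table of sequences had 33 windows for 24 of the 32 genes, some of which overlap. GGGCGG was in 13 of them and TGANTCA in 9, those of Adora1, Adora3, Entpd2, Entpd3, Entpd8, P2rx7, P2ry10 and P2ry14. Among these 8 genes, the 4 that were expressed were Entpd2, Entpd3, Entpd8 and P2rx7, with log2 differences of -0.19, 0.00, -0.08 and -0.05. The E-box CACGTG was in 4 windows, those of Entpd3, P2ry12 and P2ry2, against 7.15% of all windows. Such matches describe the letters only.

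The levels of cell type markers were set beside Ada, since keratinocytes of the tongue and lymphocytes also make the enzyme. All 4 cornified keratinocyte markers in the table (Krt1, Krt10, Lor and Ivl) had lower values at 6 months, 3 of them past the limit, with log2 differences from -1.08 to -0.57 and a summed level of 1515 (2 months) and 852 FPKM (6 months). Ada differed in the opposite direction to these 4 markers, which do not stand for all cornification genes. Sprr2k, of a cornified envelope gene family, had a larger rise than Ada. It was picked after its value was seen, and the other genes of its family are not described here. The basal keratin genes Krt14 and Krt5 differed by 0.25 and -0.15. Krt4 was listed at 7334 FPKM at 2 months and at 0 at 6 months, and Krt13 at 0 in both, so a listed 0 in this table can be a failed estimate. The T cell gene Cd3e was at 0.370 and 0.822 FPKM and the leukocyte gene Ptprc at 1.54 and 1.65 FPKM. The B cell gene Cd79a was lower at 6 months, at 0.326 and 0.141 FPKM. The level of a marker gene does not give the amount of Ada RNA in its cells. The 6 leukocyte genes together summed to 308 and 267 FPKM, most of it Lyz2, and 0 of the 4 expressed ones were called. All 4 skeletal muscle markers (Acta1, Ckm, Mb and Tnnc2) were higher at 6 months, by 0.65 to 1.07, with summed levels of 7.11 and 16.4 FPKM. The part of these cell types in the difference of Ada was not tested. In pooled tissue, more cells that express a gene and more RNA of it in each cell cannot be told apart.

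**Figure D2:**
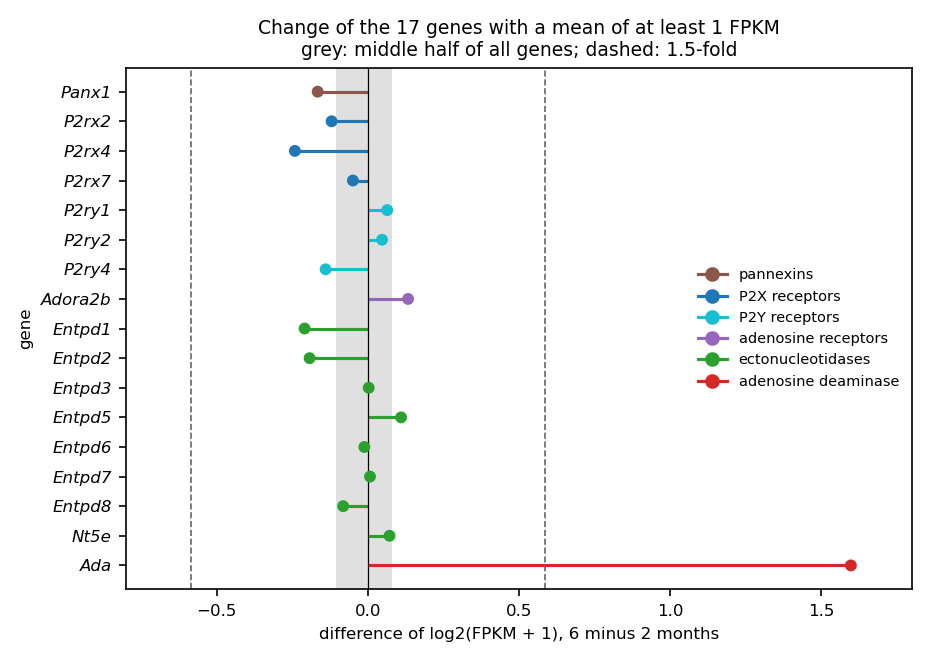
Difference of log2(FPKM + 1), 6 minus 2 months (x axis), for each of the 17 expressed genes, coloured by role; the grey band spans the quartiles of all genes and the dashed lines mark 1.5-fold. Ada, at 1.60, is the one gene beyond a dashed line, and the others lie from -0.24 (P2rx4) to 0.13 (Adora2b).

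No enzyme next to Ada in adenosine metabolism passed the 1.5-fold limit. Adenosine kinase (Adk), which removes adenosine by making AMP from it, was at 20.4 (2 months) and 19.2 FPKM (6 months). The level of Ada was 9.24 times that of Adk at 2 months and 29.8 times at 6 months. Purine nucleoside phosphorylase (Pnp), which acts on the inosine that Ada makes, was at 16.9 and 13.9 FPKM, a log2 difference of -0.26, lower than that of any of the 17 purinergic genes, and 6.50% of all genes had a lower one. Of the 13 genes listed for adenosine and purine salvage or breakdown, 11 were expressed and 0 were called, with a range from -0.26 to 0.13. Of 7 nucleoside transporter genes, 3 were expressed, among them Slc29a1, the equilibrative transporter ENT1, at 5.69 and 6.50 FPKM, and 0 were called. As the rule called 2.77% of all expressed genes, counts of 0 in lists this short are near the share of the whole table.

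Nt5e, which makes extracellular adenosine from AMP, was at 23.0 (2 months) and 24.2 FPKM (6 months), a log2 difference of 0.07. The ratio of Ada to Nt5e went from 8.18 to 23.6. A list of 7 other cell surface proteins was examined as well, of which 5 were expressed. It holds enzymes that act on nucleotides outside the cell and Dpp4, a peptidase that does not act on nucleotides, at 4.21 and 4.61 FPKM. None of the 5 was called, although Acpp, whose prostatic acid phosphatase can also dephosphorylate AMP, came nearest with 15.5 and 10.8 FPKM, a log2 difference of -0.49. Of the 7 cytosolic and mitochondrial 5'-nucleotidase genes in the table, 5 were expressed, and Nt5c3 was called lower, with 42.9 (2 months) and 25.7 FPKM (6 months) (-0.71). Its product acts mainly on pyrimidine nucleotides. Over the 5 lists of other nucleotide genes, Dpp4 included, 1 of 30 genes was called (3.33%), again near the 2.77% of all genes, with a median of -0.05.

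The Entpd genes encode NTPDases, enzymes that remove phosphates from nucleoside triphosphates and diphosphates. Of the 8 genes, 7 were expressed and 0 were called. Entpd2 was at 66.1 (2 months) and 57.7 FPKM (6 months), a log2 difference of -0.19, and 11.4% of all genes had a lower difference. It made up 74.0% of the summed level of the 4 cell surface NTPDases (Entpd1, Entpd2, Entpd3 and Entpd8) at 2 months and 71.8% at 6 months. Entpd3 followed at 18.8 and 18.9 FPKM. Entpd1, which encodes CD39 of leukocytes and blood vessels, was at 2.92 and 2.39 FPKM (-0.21), and Entpd8 at 1.53 and 1.39 FPKM. The sum of the 4 was 89.4 (2 months) and 80.4 FPKM (6 months), a log2 difference of -0.15, most of it from Entpd2.

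Entpd2 overlaps a neighbour in the GENCODE annotation. Of its 2128 exonic bases there, 612 (28.8%) are also exonic in Npdc1, which is annotated on the same strand and was at 45.1 and 39.4 FPKM. Reads from such shared bases cannot be assigned to one of the genes by position or strand alone. The values were made on RefSeq genes, and whether reads were shared was not examined. Other type I cell markers had a lower value in 1 case and a higher value in the other. Kcnj1 was at 9.25 and 7.71 FPKM (-0.23), and Slc1a3, which had a mean under 1 FPKM, at 0.710 and 0.988 FPKM.

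The NTPDases that work inside the cell or are secreted were led by Entpd5, an enzyme of the endoplasmic reticulum that supports the glycosylation of proteins. It was at 61.4 (2 months) and 66.3 FPKM (6 months) (0.11), so the order of Entpd2 and Entpd5 differed between the ages, without a measure of spread to separate them. Entpd6 was at 4.36 and 4.32 FPKM and Entpd7 at 1.93 and 1.95 FPKM. Entpd4 was listed at 0 in both ages. The annotation holds a copy of it, Entpd4b, and 100% of the 31-base words of the Entpd4 transcript are also in that of Entpd4b, which was not analysed here. Reads of the shared bases can map to both places. How such reads were counted was not examined, so the listed 0 does not tell whether Entpd4 is transcribed.

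Of the 7 P2X receptor genes, which encode ATP-gated cation channels, 3 were expressed, and all 3 had a lower value at 6 months without being called. P2rx4 was highest, at 19.3 (2 months) and 16.2 FPKM (6 months). Its log2 difference of -0.24 was the lowest among the 17 genes, and 7.60% of all genes had a lower one. It held 73.7% of the summed P2X level at 2 months and 70.8% at 6 months. P2rx7, which opens at high ATP and is best known from macrophages, was at 4.16 and 3.99 FPKM. P2rx4 and P2rx7 lie 16.1 kb apart on chromosome 5 and the same strand, and P2rx4 was 4.65 times as high as P2rx7 at 2 months and 4.06 times at 6 months.

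P2rx2 and P2rx3 encode the subunits of the receptor on the gustatory nerve. P2rx2 was at 1.67 (2 months) and 1.45 FPKM (6 months). P2rx3 was at 0.257 and 0.191 FPKM, from about 25 and 19 fragments, and shares 51 exonic bases with Ssrp1, which was at 73.4 and 72.3 FPKM on the opposite strand. Of the neuronal markers, Rbfox3 and Prph were under 0.1 FPKM and Nefl was at 1.96 and 1.33 FPKM. P2rx1, P2rx5 and P2rx6 had means from 0.0691 to 0.435 FPKM.

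The P2Y receptors are coupled to G proteins, and 3 of the 8 genes with a P2ry name were expressed. They were grouped by name alone, and what the product of each one senses was not examined. P2ry2, the receptor for ATP and UTP, was at 20.0 (2 months) and 20.7 FPKM (6 months) (0.05). P2ry1, the ADP receptor, was at 9.76 and 10.2 FPKM (0.06), and P2ry4 at 1.40 and 1.18 FPKM (-0.14). P2ry2 was 2.05 and 2.02 times as high as P2ry1, so this ratio was nearly the same at both ages. P2ry6, which lies 21.9 kb from P2ry2 on chromosome 7, was at 0.753 and 0.898 FPKM, and P2ry2 was 26.6 times as high at 2 months. The receptor genes P2ry1, P2ry2, P2ry4 and P2ry6, whose products couple to Gq, held nearly all of the P2Y level, with sums of 31.9 and 33.0 FPKM.

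P2ry12, P2ry13 and P2ry14 couple to Gi and are known from platelets, microglia and other cells of blood origin. They lie next to each other on chromosome 3, within the span of Med12l, which is on the opposite strand and was at 0.783 and 0.747 FPKM. All 3 had lower values at 6 months, with 0.193 and 0.0924 FPKM for P2ry12, 0.286 and 0.207 FPKM for P2ry13 and 0.418 and 0.183 FPKM for P2ry14. Their sum was 0.896 (2 months) and 0.482 FPKM (6 months). The value of P2ry12 rests on about 11 fragments at 6 months and that of P2ry14 on 16 to 25, depending on the transcript, so both are near the limit of this depth. The macrophage markers Aif1, Cx3cr1 and Emr1 were at 1.31, 0.974 and 0.650 FPKM in the younger group and at 1.57, 0.996 and 0.813 FPKM in the older, with higher values for all 3 at 6 months. Among the myeloid genes of the leukocyte list, Csf1r was also higher, at 2.56 and 3.13 FPKM, while Cd68 was lower, at 10.05 and 7.15 FPKM, and Lyz2 was lower, at 293 and 254 FPKM. The markers of these cells thus did not share 1 direction, and their part in the P2Y values was not tested.

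The adenosine receptors were represented mainly by Adora2b, which encodes the A2B receptor. It was at 7.67 (2 months) and 8.51 FPKM (6 months), a log2 difference of 0.13, and it held 92.1% and 91.6% of the summed level of the 4 receptors. Adora1 was at 0.527 and 0.565 FPKM and Adora3 at 0.0807 and 0.0836 FPKM. Adora2a had the highest ratio between the ages after Ada, 2.71, but from 0.0484 and 0.131 FPKM, or about 7 and 19 fragments.

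Of the channels that can release ATP, the pannexin gene Panx1 was at 17.2 (2 months) and 15.2 FPKM (6 months) (-0.17) and held 97.5% and 97.0% of the pannexin level. Panx2 was at 0.448 and 0.474 FPKM, and Panx3 was listed at 0 in both ages. Calhm1, a subunit of the channel through which type II cells release ATP, was at 2.39 and 2.77 FPKM. Calhm3, its partner subunit, was not analysed here. Slc17a9, the vesicular nucleotide transporter, was at 3.38 and 2.66 FPKM. Of the 6 expressed genes of the ATP release list, 0 were called, and they ranged from -0.33 to 0.25.

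**Figure D3:**
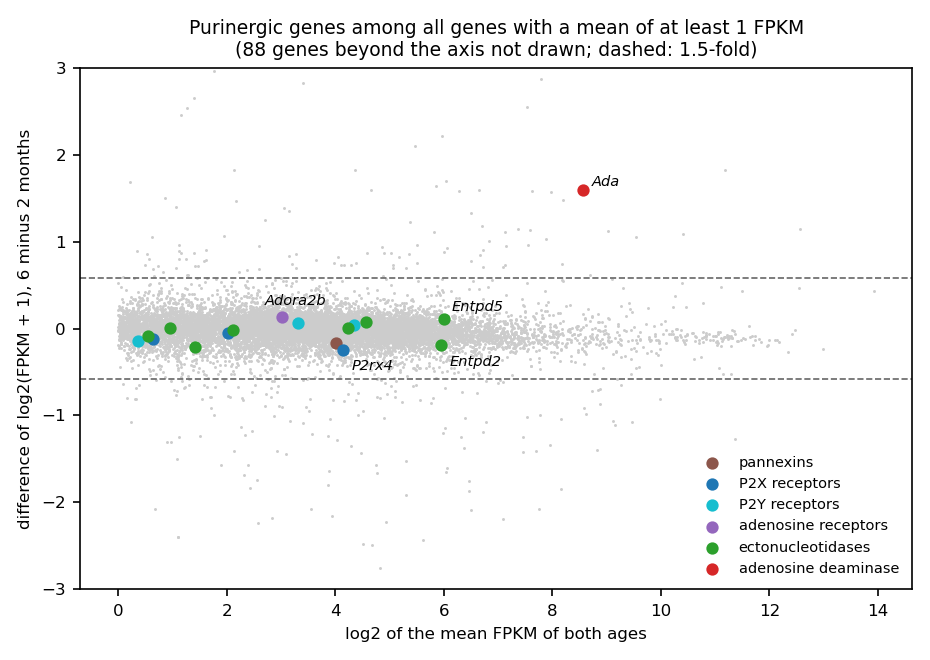
Difference of log2(FPKM + 1), 6 minus 2 months (y axis), against the log2 of the mean FPKM of both ages (x axis), with all expressed genes in grey and the 17 purinergic genes coloured by role; dashed lines mark 1.5-fold and 88 genes beyond the axis are not drawn. Ada lies above the upper dashed line, and the other 16 genes lie between the dashed lines. Of the 891 genes with 100 FPKM or more at 2 months, 16 were called higher, and Ada ranked 2 among the 891 by its rise.

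The markers of the taste cells that send and receive these signals were present. All 5 type II markers (Trpm5, Plcb2, Gnat3, Itpr3 and Tas1r3) and all 5 type III markers (Snap25, Gad1, Pkd2l1, Ddc and Chga) were expressed, and 0 of the 10 were called. Their medians were 0.05 and 0.16. The type II markers ranged from -0.08 to 0.47 (Tas1r3), with 3 higher at 6 months and 2 lower. The type III markers ranged from -0.01 to 0.34 (Gad1), with 4 higher and 1 lower. The collagen genes of fibroblasts (Col1a1 and Col1a2) and the endothelial genes Pecam1 and Cdh5 were under 1 FPKM, while Dcn was at 42.0 and 27.3 FPKM. The gland gene Lipf was at 83.7 (2 months) and 14.7 FPKM (6 months).

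**Figure D4:**
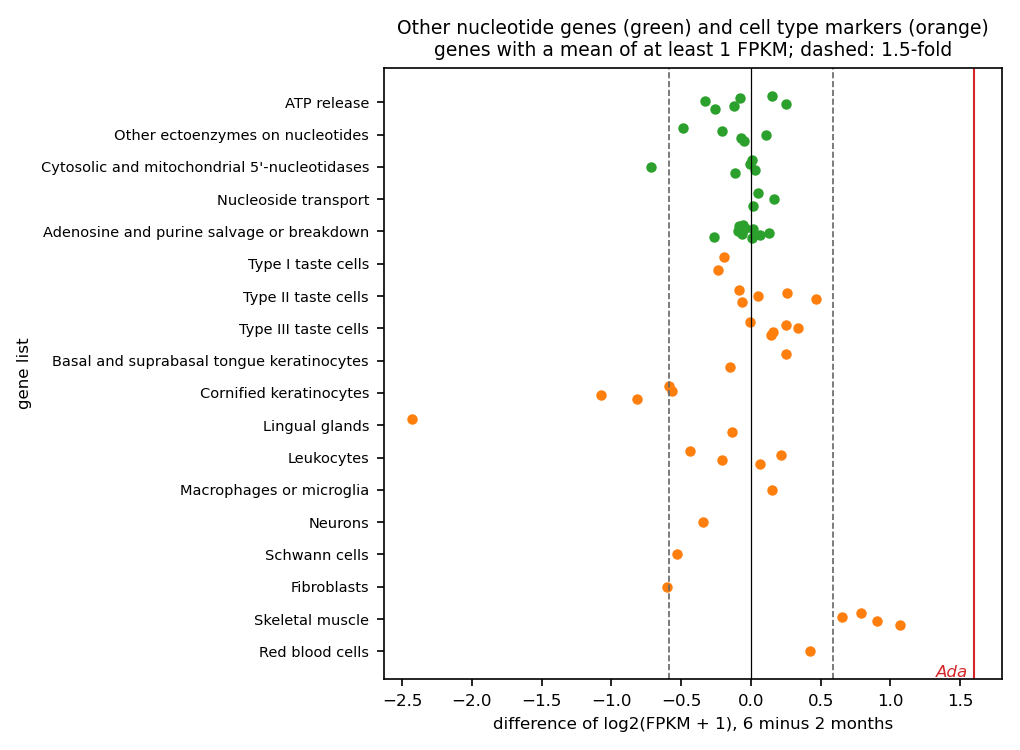
Difference of log2(FPKM + 1), 6 minus 2 months (x axis), of the genes in 5 lists of other nucleotide genes (green) and in the cell type marker lists (orange), 1 point per expressed gene with a value above 0 in both ages; dashed lines mark 1.5-fold and the red line marks Ada. The green points lie between the dashed lines except Nt5c3 at -0.71, and no point of any list is as high as Ada at 1.60.

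The 15 genes with a mean under 1 FPKM included 2 listed at 0 in both ages (Entpd4 and Panx3). The other 13 had means from 0.0691 FPKM (P2rx1) to 0.826 FPKM (P2ry6). At 6 months 8 of the 13 had a higher value and 5 a lower one, and their differences ranged from -0.26 to 0.19, a scale that understates the ratio of weakly expressed genes. P2ry6 was just under the limit of 1 FPKM, and P2ry4, with a mean of 1.29 FPKM, just above it. Some of these genes share exonic bases with other genes in the GENCODE annotation. Of the exonic bases of Adora1, 20.1% lie in Mybph (0.352 and 0.269 FPKM). Of those of P2rx6, 13.9% lie in Slc7a4 (2.16 and 2.06 FPKM). Of those of Adora3, 20.9% lie in Tmigd3, which was not analysed here. Mybph and Slc7a4 are on the opposite strand, which the library kit does not mark. Whether reads were shared between these genes was not examined.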

How the data were processed

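Poly(A) RNA of pooled CV/Fol taste cells was sequenced at 2 and 6 months of age, with 3 libraries for each age. Per the labels and the study's methods, the authors used TopHat2 2.0.7 for mapping to the GRCm38/mm10 build, quantified RefSeq genes with Cufflinks 2.1.1 and compared the ages with Cuffdiff. The deposited values are FPKM, 1 for each gene and age over the libraries of that age. How Cuffdiff scaled the libraries is not given in the sources used here. The values that the table marks B were taken as 6 months and those marked S as 2 months, from the letters in the sample titles. The table also has a p-value column from the authors' comparison, which was not used. With 1 value for each age, no test was run.

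Differences used a pseudocount of 1 FPKM, expression of 1 FPKM or more on average and a limit of 1.5-fold. The calling step was tried on 2 month values multiplied by fixed factors without noise, which checks its arithmetic only. Named were all expressed genes of the set, the called genes of the lists, fixed reference genes and genes that overlap or mark a cell type. Amd1, Amd2, Idi2, Scgb1a1, Sprr2k and Acpp were named after their values were seen. The genes and lists were chosen with earlier results of these data known. All 32 genes matched GENCODE M21 (GRCm38) by symbol.

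The depth was estimated from the lowest values of genes with 1 transcript length, multiplied by the length less 200 bases at 2 months and 210 bases at 6 months. These lengths were chosen to make the values cluster most sharply, and 3 steps were sought for each age because it has 3 libraries. Of 95 such values at 2 months 71.6% lay within 2% of a step, and of 104 at 6 months 73.1%. Read as 1 fragment in 1 of 3 equally weighted libraries, the steps give about 25500000, 18400000 and 17100000 fragments at 2 months and 23500000, 20300000 and 16900000 at 6 months. Fragment numbers in the text are estimates from these steps and RefSeq transcript lengths, and cover counting error only. Python 3.11.15, numpy 2.4.6, pandas 2.3.3 and matplotlib 3.10.9 were used.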

Additional observations from a re-analysis of the deposited data

How the results depend on the processing

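The count of genes called, 1 higher (Ada) and 0 lower, was the same without a filter on low values (30 genes above 0), with a limit of 5 FPKM (10 genes), with a pseudocount of 0.1 FPKM, with either scaling and at 2-fold. The median of -0.01 stayed near 0 but is too small for its sign to be read. It was 0.0031 without the filter, 0.055 at 5 FPKM or more, 0.012 with the 6 month values scaled to the same upper quartile and -0.00076 with them scaled to a median change of 0 over all genes. The share of all genes called was 2.77%, and 1.60% at 2-fold and 1.61% without small RNA genes and genes listed at 0 in 1 age, a setting chosen after the data had been seen. Of the 23 genes with recomputed differences, Entpd6 alone changed sign, to 0.01, with the same upper quartile.

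No paired analysis was possible because only 1 combined value is given for each age. Fits without each replicate in turn were not run for the same reason, so whether 1 pool decides the difference of Ada is not known. Depth limits the genes under about 0.2 FPKM, which rest on few fragments.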
